A study of Mus musculus with 16 samples.

Results

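The intercalated disc is the junction that joins heart muscle cells end to end, and 10 of its genes were followed here: Dsp, Jup, Pkp2 and Dsg2 of the desmosome, Cdh2, Ctnnb1 and Ctnna1 of the adherens junction, the scaffold gene Tjp1, and the connexin genes Gja1 and Gja5 of the gap junction. A member was every probe set (a group of short oligonucleotides that together give 1 signal for 1 transcript) whose platform annotation held exactly 1 gene symbol equal to one of these 10. That gave 30 of the 22626 probe sets without controls. Of the 30, 26 were bright enough to be tested (mean of the log2 values above that of a signal of 130.8), among 13576 tested in all, and every one of the 30 is described because probe sets of 1 gene did not move alike.

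Left ventricles of 16 C57BL/6J mice aged 12 to 14 weeks were profiled, 1 animal per array, with 4 groups of 4 arrays: sham-operated males, males with TAC, sham-operated females and females with TAC. TAC is transverse aortic constriction, a band around the aorta that makes the left ventricle pump against a higher pressure, and RNA was isolated 14 days after the operation. No label gives a genetic change in any group, and whether the shams had every surgical step except the band is not stated. The series asks whether males and females differ in their early response to the load. Below, arrays are listed in the order of their replicate numbers (1, 2, 3, 4 in both sham groups, 1, 2, 4, 5 in male TAC and 1, 2, 3, 5 in female TAC), and signals are the authors' scaled intensities.

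Mechanical force passes between heart muscle cells through desmosomes, which anchor desmin filaments, and through adherens junctions, which anchor actin. In a desmosome, desmosomal cadherins such as desmoglein 2 (Dsg2) span the gap between cells, plakoglobin (Jup) and plakophilin 2 (Pkp2) bind their tails, and desmoplakin (Dsp) ties the plaque to desmin. In an adherens junction, N-cadherin (Cdh2) spans the gap, and beta-catenin (Ctnnb1) and alpha-catenin (Ctnna1) link it to actin. Connexin 43 (Gja1) forms the gap junction channels through which the electrical impulse passes between ventricular muscle cells, connexin 40 (Gja5) does so mainly in atria and the conduction system, and ZO-1 (Tjp1) is a scaffold that binds connexin 43. Inherited changes in the desmosomal genes are known causes of arrhythmogenic cardiomyopathy, and loss or displacement of connexin 43 is a known feature of diseased ventricles.

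The 250 bases before the annotated starts of Gja1 and Dsp are shown, from RefSeq's table of the assembly GRCm38.p6. These are the junction genes whose probe sets disagreed most, and whether the windows bear on that was not tested. The first is at chr10:56377050-56377299, plus strand, with its match to the AP-1 motif TGANTCA in capitals. The second is at chr13:38151044-38151293, plus strand, with its matches to the GC box GGGCGG, on either strand, in capitals.
Gja1: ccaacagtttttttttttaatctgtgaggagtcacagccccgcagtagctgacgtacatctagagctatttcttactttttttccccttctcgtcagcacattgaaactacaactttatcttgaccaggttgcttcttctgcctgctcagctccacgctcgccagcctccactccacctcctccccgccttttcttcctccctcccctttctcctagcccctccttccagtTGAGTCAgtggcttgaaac
Dsp: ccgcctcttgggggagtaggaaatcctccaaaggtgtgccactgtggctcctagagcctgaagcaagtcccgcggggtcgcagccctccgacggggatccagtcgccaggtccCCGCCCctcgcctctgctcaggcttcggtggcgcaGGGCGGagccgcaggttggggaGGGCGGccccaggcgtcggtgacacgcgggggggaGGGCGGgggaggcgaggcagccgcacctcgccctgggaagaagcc
The AP-1 match of Gja1 began 19 bases before the start, and 6.75% of all 32851 such windows held the motif. Dsp had 4 GC boxes, a motif held by 32.7% of windows and also by those of Ctnnb1, Tjp1, Jup and Gja5. Both strands were searched for 4 further motifs: the E-box CACGTG (6.02% of windows), the CCAAT box CCAAT (33.8%), the GATA motif AGATAA (9.99%) and the TGACGT core of the cyclic AMP response element (6.47%). Of these, the Gja1 window held 1 GATA motif and 1 TGACGT core, neither of which overlapped the AP-1 match, and the Dsp window held none. Each match is a run of letters in the window and was not tested as a binding site.

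The labels held: Myh7, the slow myosin heavy chain that rises in the loaded mouse ventricle, had signals of 790.5 to 890.3 in male shams, 9035.6 to 30050.1 in male TAC, 1040.0 to 1717.4 in female shams and 5172.1 to 22053.1 in female TAC. The atrial peptide gene Nppa lay between 2957.9 and 6214.8 over both sham groups and between 12094.9 and 39484.2 over both TAC groups. Xist was at 2815.8 or above on every female array and at 393.2 or below on every male one, and Eif2s3y, a gene of the Y chromosome, was at 423.3 or above on every male array and at 15.1 or below on every female one. RNA quality measures moved with the operation too. The 3' to 5' ratio of the Gapdh control was 0.885 ± 0.039 (SD, n = 4) in sham and 1.08 ± 0.070 in TAC males, and 0.865 ± 0.058 in sham and 0.989 ± 0.030 in TAC females. The groups did not overlap in either sex (exact permutation test, 2-sided, p = 0.0286, the smallest that 4 against 4 allows, adjusted p = 0.0381 over 4 tests). The log2 signal of the 5' probe set for 18S ribosomal RNA was 13.35 ± 0.50 in male shams against 10.32 ± 1.91 in male TAC (exact permutation p = 0.0571, adjusted 0.0571), and 11.95 ± 0.92 against 10.18 ± 0.61 in females (exact permutation p = 0.0286, adjusted 0.0381). These measures are set beside the junction genes further on.

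Some signals of the disc genes were lower in TAC than in sham and others were higher, often within 1 gene. In males 6 of the 26 probe sets rose and 9 fell (adjusted p below 0.05, limma), while 17.8% of all 13576 probe sets tested were called, 8.07% as higher and 9.77% as lower. In females 1 rose and 11 fell, against 15.1% called in all, 6.46% as higher and 8.6% as lower. Averaged over the sexes, 7 rose and 12 fell, against 28.7% called in all, 12.9% as higher and 15.8% as lower. The median log2 change of the 26 was -0.30 in males, -0.32 in females and -0.31 averaged, and that of all probe sets was -0.03 in each of these comparisons. A change is a difference of means of log2(signal + 16), which understates the change of dim probe sets. Centring each array on its median moved the median of all probe sets in females from -0.03 to 0.08 and the share of higher calls among all calls from 42.9% to 64.4% (averaged over the sexes, from 44.9% to 60.3%); 8 of the 12 female and 12 of the 15 male junction calls held under it.

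The counts depended on the probe set taken for each gene. When only the brightest probe set of each of the 9 measured genes was counted, 3 rose and 2 fell in males, 0 rose and 2 fell in females, and 4 rose and 2 fell averaged over the sexes. Counted in the same way over all 8272 genes tested, 15.9% were called in males (8.1% rose and 7.77% fell). The shares were 13.1% in females (6.37% and 6.69%) and 26.5% averaged (13.4% and 13.1%). On any probe set, 5 of the 7 junction genes with 2 or more probe sets tested both rose and fell averaged over the sexes: Dsp, Pkp2, Ctnnb1, Ctnna1 and Gja1. Of all 2834 genes with 2 or more probe sets tested, 4.2% did so. The junction genes that both rose and fell were Dsp, Ctnnb1 and Gja1 in males, against 1.2% of all such genes, and Dsp in females, against 1.2%. A gene with more probe sets has more chances to be called both ways, and these shares were not matched for that number. Gja1 had 6 probe sets tested, Dsg2 5, and Dsp, Pkp2 and Ctnnb1 3 each. Probe sets of Dsp and Gja1 were already known to disagree in these data when the genes were chosen, so these counts are a description. The arrays of TAC and sham did not overlap for 13 of the 26 probe sets in males (4 with TAC higher, 9 lower) and for 16 in females (3 higher, 13 lower). Of all probe sets tested, 19.6% did not overlap in males (8.75% with TAC higher, 10.9% lower) and 19.9% in females (8.29% and 11.6%). In whole-ventricle RNA, fewer cells of a type and less RNA per cell cannot be told apart.

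**Figure D1:**
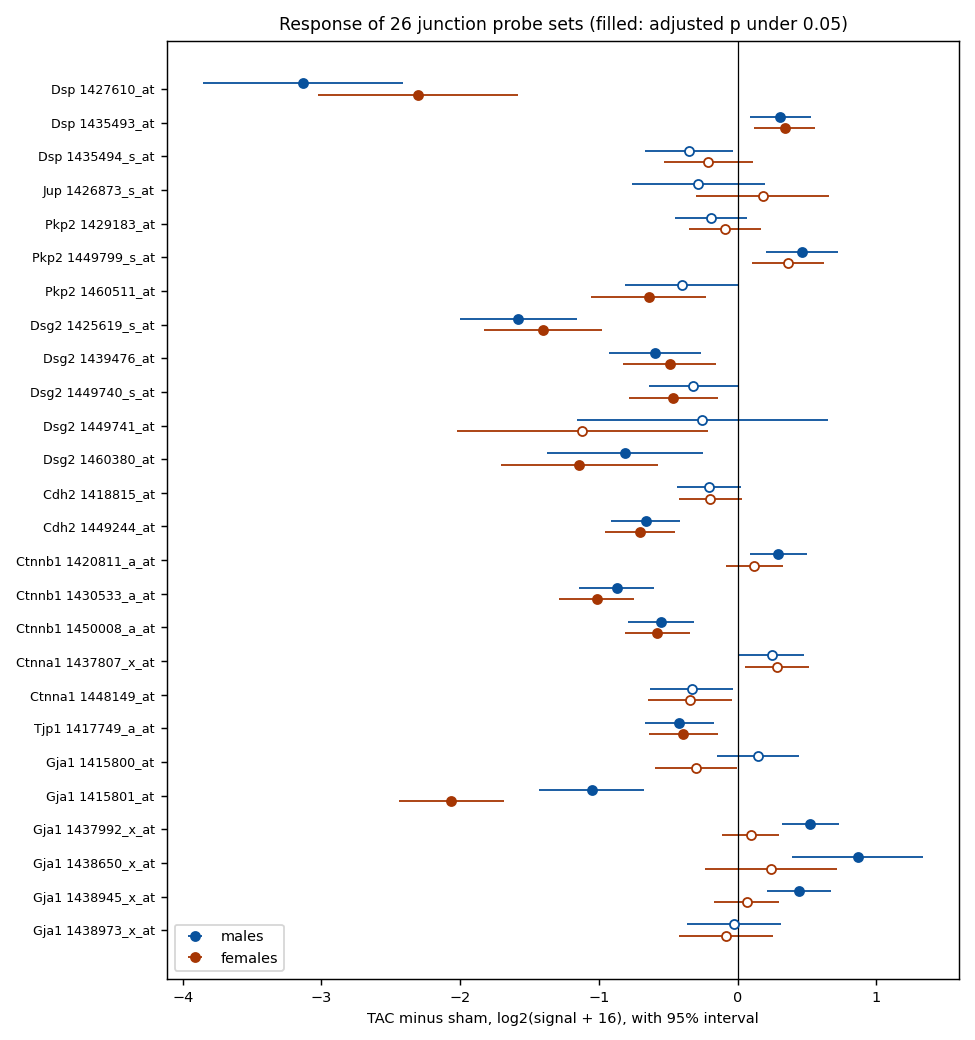
Each row is a junction probe set; points are the TAC minus sham difference of log2(signal + 16) in males (blue) and females (brown), bars the 95% interval of the limma fit, n = 4 arrays a group, and filled points passed adjusted p below 0.05. The lowest values are those of Dsp 1427610_at (-3.13 in males, -2.31 in females), followed by Dsg2 1425619_s_at in males (-1.58) and Gja1 1415801_at in females (-2.06), and other probe sets of Dsp and Gja1 lie above 0.

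The probe sets of desmoplakin did not move alike. Its dimmest probe set, 1427610_at, read 1337.9, 1465.8, 1989.9 and 1932.2 in the male shams and 163.5, 155.7, 76.2 and 453.0 in male TAC. In females it read 906.5, 1604.5, 2038.5 and 1768.4 in shams and 293.8, 197.6, 370.2 and 343.6 in TAC. Every TAC array lay below every sham array in both sexes, by a log2 change of -3.13 (SE 0.35, adjusted p = 4.11e-06) in males and -2.31 (SE 0.35, adjusted p = 0.000152) in females, an 8.76-fold and a 4.94-fold fall of signal + 16. Dsp 1435493_at moved the other way, from 6899.6, 6200.4, 6106.3 and 6101.8 in male shams to 8068.2, 7939.2, 6408.9 and 9101.7 in male TAC, and from 5798.5, 6608.6, 6946.8 and 6520.5 to 8483.8, 7254.8, 8978.4 and 8062.0 in females. Its rise was 0.31 (SE 0.11, adjusted p = 0.049) in males, where male sham 1 lay above male TAC 4, and 0.34 (SE 0.11, adjusted p = 0.0341) in females, where the groups did not overlap. Averaged over the sexes the rise was 0.32 (SE 0.07, adjusted p = 0.00255), and this call held without any 1 array. The male call ended without male TAC 1, 2 or 5, female TAC 1 or 5, male sham 2, 3 or 4, or female sham 2, 3 or 4 (log2 0.23 to 0.31, adjusted p = 0.0566 to 0.155). The female call ended without female TAC 1, 3 or 5 or female sham 1, 2 or 4 (0.29 to 0.35, adjusted p = 0.0564 to 0.105). Both calls ended too without the filter on dim probe sets (adjusted p = 0.0811 in males and 0.057 in females) and without the intensity trend (0.113 and 0.0865). The male call also ended with quantile normalization (0.22, adjusted p = 0.11), with median centring (0.36, adjusted p = 0.0545) and in a fit of the male arrays alone (adjusted p = 0.0901).

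The third and brightest Dsp probe set, 1435494_s_at, passed the threshold in neither sex. It read 10453.4, 12557.9, 10841.8 and 12748.1 in male shams and 6169.4, 10981.1, 9226.8 and 10955.0 in male TAC, with male TAC 1 lowest. In females it read 10928.8, 11278.0, 12645.3 and 10399.2 in shams and 10648.2, 7757.5, 11441.2 and 9569.6 in TAC. The groups overlapped in both sexes, and the change was -0.35 (SE 0.15, adjusted p = 0.127) in males, -0.21 (SE 0.15, adjusted p = 0.402) in females and -0.28 (SE 0.11, adjusted p = 0.0577) averaged. The averaged value passed with quantile normalization (adjusted p = 0.0477), with the dimmest 60% left out (0.0454), with array weights (0.0356) and without male TAC 2 or 5 or female TAC 3 (0.0307 to 0.0382).

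Desmoglein 2 fell. Its brightest probe set, 1439476_at, read 1679.2, 1889.4, 2053.9 and 1638.9 in sham and 916.5, 1117.7, 1574.4 and 1251.7 in TAC males, and 2448.5, 3196.3, 2269.8 and 2035.4 in sham and 1822.2, 1475.1, 1683.9 and 2033.9 in TAC females. TAC lay below sham without overlap in both sexes, with changes of -0.59 (SE 0.16, adjusted p = 0.0131) in males, -0.49 (SE 0.16, adjusted p = 0.0433) in females and -0.54 (SE 0.11, adjusted p = 0.00107) averaged. The male call ended without male TAC 1 (-0.47, adjusted p = 0.0521). The female call ended without female TAC 1, 2 or 3, female sham 1, 2 or 3, or male sham 2 (-0.36 to -0.53, adjusted p = 0.0509 to 0.158). It also ended with median centring (-0.37, adjusted p = 0.121), without the filter (adjusted p = 0.0583) and without the trend (0.0794). The largest Dsg2 fall was on 1425619_s_at, from 543.2, 520.8, 701.1 and 529.5 to 179.8, 160.4, 133.6 and 268.7 in males and from 521.9, 749.1, 532.2 and 721.5 to 254.9, 180.0, 232.4 and 241.8 in females. Again no TAC array reached a sham array, and the change was -1.58 (SE 0.20, adjusted p = 2.12e-05) in males and -1.40 (SE 0.20, adjusted p = 0.000106) in females, a 2.99-fold and a 2.64-fold fall. Names ending in _s_at or _x_at mark probe sets that the array's maker lists as able to bind transcripts of more than 1 gene, in part or whole, so these signals can hold another gene's RNA.

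Of the other Dsg2 probe sets, 1460380_at read 565.7, 559.0, 477.8 and 358.6 in sham and 246.7, 252.0, 381.5 and 216.3 in TAC males, and 297.4, 421.6, 393.4 and 597.7 in sham and 218.7, 243.5, 209.1 and 90.5 in TAC females. It fell, with a change of -0.81 (SE 0.27, adjusted p = 0.042) in males, where male TAC 4 lay above male sham 4, and -1.14 (SE 0.27, adjusted p = 0.00653) in females, without overlap. Its male call ended without male TAC 1, 2 or 5, male sham 1, 2 or 3, or female sham 2 or 3 (-0.72 to -0.82, adjusted p = 0.0509 to 0.105). The same happened with median centring (-0.76, adjusted p = 0.0524), without the filter (adjusted p = 0.0746) and without the trend (0.0571). Dsg2 1449740_s_at read 874.1, 854.5, 935.7 and 760.3 in sham and 549.2, 568.6, 818.0 and 839.0 in TAC males, which overlapped, and 895.0, 1054.1, 919.3 and 989.8 in sham and 738.7, 560.6, 697.8 and 799.9 in TAC females, which did not. The change was -0.32 (SE 0.15, adjusted p = 0.169) in males, -0.46 (SE 0.15, adjusted p = 0.047) in females and -0.39 (SE 0.11, adjusted p = 0.0099) averaged. The female call ended without female TAC 1, 2 or 3, any 1 female sham or any 1 male sham (-0.36 to -0.50, adjusted p = 0.0511 to 0.152). It also ended with quantile normalization (-0.45, adjusted p = 0.0574), with median centring (-0.35, adjusted p = 0.158), without the filter (adjusted p = 0.0627) and without the trend (0.0645). Dsg2 1449741_at, dim at 38.2 to 295.3, had a TAC minus sham value of -0.25 (SE 0.43, adjusted p = 0.75) in males and -1.12 (SE 0.43, adjusted p = 0.0909) in females. The female value passed in a fit of the female arrays alone (adjusted p = 0.0208) and without male sham 1 (0.018), and so did the averaged one without that array (-0.96, adjusted p = 0.00331). The sixth, 1426153_a_at, lay between 9.4 and 140.4 and was too dim to be tested.

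Plakophilin 2, which links desmosomal cadherins to desmoplakin, was higher on its brightest probe set and lower on a dim one. Pkp2 1449799_s_at read 3030.4, 3172.6, 2462.8 and 3366.4 in sham and 3530.3, 3870.0, 4036.7 and 5245.5 in TAC males, and 3727.7, 3591.1, 3256.2 and 2979.1 in sham and 4434.3, 3920.7, 4576.9 and 4508.1 in TAC females, so that TAC lay above sham in both sexes. The rise was 0.46 (SE 0.12, adjusted p = 0.0134) in males and 0.41 (SE 0.09, adjusted p = 0.00132) averaged, and in females the change was 0.36 (SE 0.12, adjusted p = 0.0543). Its male call ended without male TAC 5 or male sham 3 (0.35 and 0.37, adjusted p = 0.0526 and 0.06). The female value passed with median centring (0.48, adjusted p = 0.0225), with the dimmest 60% left out (adjusted p = 0.0432), with array weights (0.0371) and in a fit of the female arrays alone (0.0348). It passed too with the 18S signal in the fit (0.47, adjusted p = 0.0412) and without male TAC 1 or 5, female TAC 2 or male sham 3 (adjusted p = 0.0293 to 0.0496). Pkp2 1460511_at went the other way, from 583.1, 352.1, 466.0 and 391.0 to 412.0, 317.2, 291.5 and 308.8 in males, with overlap, and from 636.5, 408.7, 381.4 and 394.4 to 284.2, 339.2, 234.7 and 270.6 in females, without. The change was -0.40 (SE 0.20, adjusted p = 0.182) in males, -0.64 (SE 0.20, adjusted p = 0.0333) in females and -0.52 (SE 0.14, adjusted p = 0.00792) averaged. Its female call ended without female TAC 1, 3 or 5 or female sham 1 (-0.47 to -0.65, adjusted p = 0.0566 to 0.127). So it did with quantile normalization (-0.57, adjusted p = 0.0611), with median centring (-0.52, adjusted p = 0.0765) and without the filter (adjusted p = 0.0598). Pkp2 1429183_at, at 1860.4 to 2997.8, had a TAC minus sham value of -0.19 (SE 0.12, adjusted p = 0.321) in males and -0.09 (SE 0.12, adjusted p = 0.695) in females, the latter turning to 0.03 with median centring. Pkp2 1420259_at lay between 10.4 and 160.0 and was not tested.

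Plakoglobin, the desmosomal protein that also binds N-cadherin, had 1 probe set and passed in no comparison of the fit without covariates. Jup read 663.6, 1239.5, 1022.6 and 990.7 in sham and 906.1, 867.2, 1113.1 and 425.9 in TAC males, and 800.7, 1087.8, 789.8 and 768.4 in sham and 814.1, 996.6, 1030.9 and 1051.9 in TAC females. Male TAC 5 was the lowest of the 16 arrays and male sham 2 the highest, and the groups overlapped in both sexes. The change was -0.28 (SE 0.23, adjusted p = 0.447) in males (95% interval -0.76 to 0.20) and 0.18 (SE 0.23, adjusted p = 0.666) in females (-0.30 to 0.66). With the 18S signal in the fit it was -1.04, adjusted p = 0.017, in males and -0.65, adjusted p = 0.0293, averaged, against -0.05 without it. With the Gapdh ratio the values were -0.74 and -0.44, and neither passed.

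**Figure D2:**
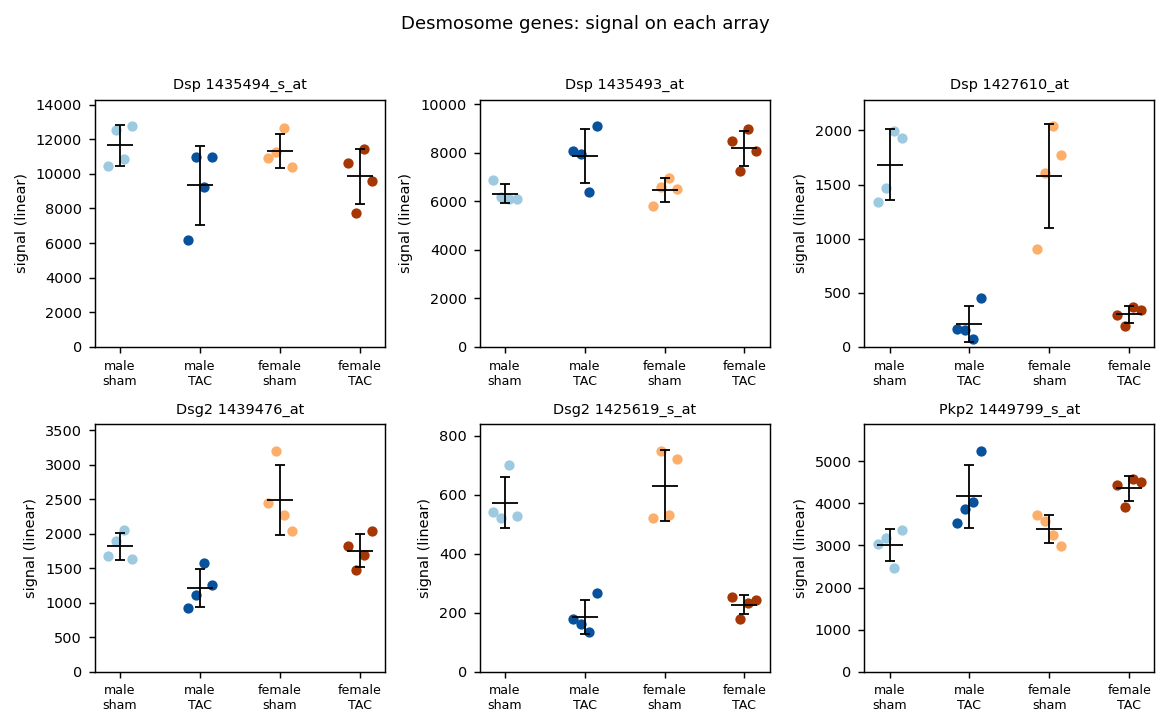
Signal (linear scale) of 6 desmosomal probe sets on each of the 16 arrays, by sex and operation; points are arrays, horizontal marks the group mean and bars 1 SD. Dsp 1427610_at fell from 906.5 or more in all shams to 453.0 or less in all TAC arrays, Dsg2 1425619_s_at from 520.8 or more to 268.7 or less, and Pkp2 1449799_s_at was higher in TAC.

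In the adherens junction, N-cadherin fell on 1 of 2 probe sets. Cdh2 1449244_at read 3594.7, 2930.7, 2891.6 and 2713.9 in sham and 1618.5, 1993.3, 2263.1 and 1777.2 in TAC males, and 3168.4, 2902.3, 2663.9 and 2650.3 in sham and 1904.5, 1679.3, 1809.1 and 1563.3 in TAC females. No TAC array reached a sham array, and the fall was -0.66 (SE 0.12, adjusted p = 0.00067) in males and -0.71 (SE 0.12, adjusted p = 0.000481) in females. The brighter Cdh2 1418815_at read 5222.5, 5055.4, 3932.6 and 4761.9 in sham and 3542.7, 3713.9, 4730.1 and 4467.5 in TAC males, and 5180.2, 4918.6, 4935.3 and 5197.5 in sham and 4003.6, 4423.0, 4730.6 and 4516.6 in TAC females. These overlapped in males and not in females, and the change was -0.21 (SE 0.11, adjusted p = 0.217) in males, -0.20 (SE 0.11, adjusted p = 0.259) in females and -0.20 (SE 0.08, adjusted p = 0.0574) averaged, past the threshold in none. The averaged value passed with quantile normalization (-0.26, adjusted p = 0.0152), with the dimmest 60% left out (adjusted p = 0.0485), with array weights (0.0392) and without male TAC 4 or 5 or male sham 3 (0.021 to 0.0443).

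Beta-catenin, which besides its place in the junction carries Wnt signals to the nucleus, rose on its brightest probe set and fell on both others. Ctnnb1 1430533_a_at read 1116.6, 997.3, 1179.9 and 1154.9 in sham and 643.5, 621.3, 585.3 and 549.8 in TAC males, and 1288.7, 1106.4, 1260.3 and 1103.4 in sham and 491.2, 699.2, 531.0 and 613.3 in TAC females. The fall was -0.87 (SE 0.13, adjusted p = 9.07e-05) in males and -1.02 (SE 0.13, adjusted p = 3.08e-05) in females, with a wide gap between the groups. Ctnnb1 1450008_a_at read 2030.3, 1927.8, 2096.0 and 1747.2 in sham and 1274.9, 1248.5, 1615.5 and 1180.9 in TAC males, and 2351.5, 2602.5, 2409.4 and 2102.8 in sham and 1569.2, 1681.9, 1564.8 and 1494.1 in TAC females. It fell in both, with changes of -0.55 (SE 0.11, adjusted p = 0.00187) in males and -0.58 (SE 0.11, adjusted p = 0.00167) in females, again with no overlap. Ctnnb1 1420811_a_at read 6912.9, 6859.6, 7111.7 and 8042.4 in sham and 7914.4, 9399.6, 10339.8 and 7953.3 in TAC males, and 10242.8, 9575.3, 9013.6 and 9001.5 in sham and 11286.0, 9966.2, 9758.9 and 10145.0 in TAC females. It rose by 0.29 (SE 0.10, adjusted p = 0.0435) in males, where male sham 4 overlapped TAC, and by 0.21 (SE 0.07, adjusted p = 0.0298) averaged, and its change in females was 0.12 (SE 0.10, adjusted p = 0.461). Both calls depended on single arrays and on the processing. The male one ended without male TAC 2 or 4, female TAC 5, male sham 1, 2 or 3, or female sham 2, 3 or 4 (0.22 to 0.29, adjusted p = 0.0512 to 0.144). The averaged one ended without male TAC 2 or 4, female TAC 1, male sham 1, 2 or 3, or female sham 3 or 4 (0.17 to 0.20, adjusted p = 0.0509 to 0.0652). Both ended with quantile normalization (0.22, adjusted p = 0.183, in males and 0.16, adjusted p = 0.116, averaged), without the filter (adjusted p = 0.0806 and 0.0554) and without the trend (0.109 and 0.079). The male one also ended in a fit of the male arrays alone (0.0962). With the 18S signal in the fit the values were 0.15 in males and 0.09 averaged, neither past the threshold.

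Alpha-catenin, the link from beta-catenin to actin, passed only averaged over the sexes, upward on one probe set and downward on the other. Ctnna1 1437807_x_at read 9037.5, 7028.0, 7734.1 and 6824.5 in sham and 10695.4, 9570.4, 7518.7 and 8602.9 in TAC males, and 6399.2, 7579.8, 7407.4 and 7702.2 in sham and 8778.3, 9166.5, 9002.5 and 8380.0 in TAC females. The groups overlapped in males and not in females, and the rise averaged over the sexes was 0.26 (SE 0.08, adjusted p = 0.0152), a call that ended with quantile normalization (0.20, adjusted p = 0.0728). In males alone the change was 0.24 (SE 0.11, adjusted p = 0.142), which passed without male TAC 4 (0.33, adjusted p = 0.0451), and in females 0.28 (SE 0.11, adjusted p = 0.0952), which passed with median centring (0.40, adjusted p = 0.0331). Ctnna1 1448149_at read 7434.5, 6206.3, 7641.1 and 6932.8 in sham and 4747.9, 4691.0, 5568.7 and 7841.1 in TAC males, and 9314.0, 6372.3, 7255.4 and 7705.6 in sham and 6543.9, 5324.0, 5837.6 and 6294.1 in TAC females, which overlapped in both sexes. Its averaged change was -0.34 (SE 0.10, adjusted p = 0.0164), against -0.33 (SE 0.14, adjusted p = 0.124) in males and -0.34 (SE 0.14, adjusted p = 0.12) in females, and the averaged value turned to 0.17 (adjusted p = 0.626) with the Gapdh ratio as a covariate. It also missed the threshold with median centring (-0.25) and when 18S entered the fit (-0.05), and its adjusted p ranged from 0.000885 to 0.874 over all alternatives. Its values in single sexes passed with quantile normalization (-0.40, adjusted p = 0.0408, in males and -0.42, adjusted p = 0.0408, in females) and without male TAC 5 (-0.49, adjusted p = 0.00913, and -0.34, adjusted p = 0.0481). Both passed too with the replicate number as a block (-0.41, adjusted p = 0.0305, in males and -0.43, adjusted p = 0.0296, in females). Ctnna1 1437275_at lay between 2.7 and 108.4 and was not tested.

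The scaffold ZO-1 fell in both sexes. Tjp1 read 2043.7, 2181.3, 1829.0 and 1936.3 in sham and 1590.4, 1435.4, 1346.1 and 1580.7 in TAC males, and 1946.1, 2492.1, 1928.3 and 1941.2 in sham and 1659.9, 1682.1, 1299.5 and 1676.5 in TAC females. The groups did not overlap, although female sham 2 and female TAC 3 stood apart from the rest of their groups. The fall was -0.42 (SE 0.12, adjusted p = 0.0179) in males, -0.39 (SE 0.12, adjusted p = 0.0311) in females and -0.41 (SE 0.08, adjusted p = 0.00102) averaged. The male call ended without male TAC 4 or male sham 2 (-0.37 and -0.38, adjusted p = 0.0524 and 0.056), the female call without female TAC 3 or female sham 2 (-0.30 for each, adjusted p = 0.11 and 0.118), while the averaged call held without any 1 array. Median centring ended both (-0.37, adjusted p = 0.0533, in males and -0.28, adjusted p = 0.156, in females). The female call also ended without the trend (adjusted p = 0.0567) and in a fit of the female arrays alone (0.0623). With the 18S signal in the fit the male, female and averaged calls all ended. The values were -0.40 (adjusted p = 0.199), -0.38 (0.0983) and -0.39 (0.0628).

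Connexin 43 had 6 probe sets, and 3 rose in males, 1 fell in both sexes and 2 passed in no TAC comparison. On the brightest, Gja1 1437992_x_at, the signal was 9175.9, 10995.2, 9263.3 and 10167.5 in sham and 14278.9, 15007.3, 12911.4 and 14733.3 in TAC males, and 13421.5, 11034.2, 12257.1 and 10775.3 in sham and 12052.7, 12568.8, 11468.3 and 14599.3 in TAC females. Male TAC lay above every male sham, by 0.52 (SE 0.10, adjusted p = 0.000887), while the female groups overlapped, with a change of 0.09 (SE 0.10, adjusted p = 0.592). Gja1 1438945_x_at behaved likewise, at 5426.1, 5455.9, 4794.2 and 5100.0 in sham and 5670.2, 7095.5, 7725.8 and 7997.1 in TAC males, and 6733.2, 7128.4, 6633.7 and 7022.2 in sham and 7194.1, 6920.0, 6238.9 and 8635.5 in TAC females. Its rise was 0.44 (SE 0.11, adjusted p = 0.00849) in males, without overlap, and its change in females 0.07 (SE 0.11, adjusted p = 0.761). Its averaged rise, 0.25 (SE 0.08, adjusted p = 0.0196), ended with quantile normalization (0.19, adjusted p = 0.0706) and without the trend (adjusted p = 0.0532). Gja1 1438650_x_at read 2397.6, 3354.3, 2807.9 and 2051.2 in sham and 6438.1, 4275.9, 5151.2 and 3636.7 in TAC males, and 3055.2, 3576.7, 3893.7 and 3515.5 in sham and 3679.9, 5508.0, 2389.3 and 6018.7 in TAC females, where female TAC 3 was lowest and female TAC 5 highest. The rise was 0.87 (SE 0.23, adjusted p = 0.0113) in males, without overlap, and the change in females 0.24 (SE 0.23, adjusted p = 0.544), with overlap.

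The fall of connexin 43 signal was on Gja1 1415801_at. It read 1303.3, 1184.5, 1356.4 and 1540.1 in sham and 608.4, 694.0, 689.1 and 570.4 in TAC males, and 2016.7, 2413.4, 2109.5 and 1982.3 in sham and 437.7, 506.5, 338.7 and 800.0 in TAC females. Neither sex showed overlap, and the fall was -1.05 (SE 0.18, adjusted p = 0.000434) in males and -2.06 (SE 0.18, adjusted p = 5.15e-07) in females, 2.07-fold and 4.18-fold. Gja1 1415800_at, at 2939.7 to 5805.6, had TAC minus sham values of 0.15 (SE 0.14, adjusted p = 0.542) in males and -0.30 (SE 0.14, adjusted p = 0.172) in females, and 1438973_x_at, at 927.5 to 1678.3, had -0.03 (SE 0.16, adjusted p = 0.936) and -0.08 (SE 0.16, adjusted p = 0.796). Both averaged values of these 2 probe sets (-0.08 and -0.05) turned to values above 0 with median centring (0.01 and 0.03), as did the value of 1438973_x_at in each sex (0.03 in both). The 3 Gja1 probe sets that rose in males all had names ending in _x_at, as did 1438973_x_at.

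Connexin 40 was at the bottom of the signal range. Its 1 probe set, Gja5 1422192_at, read 8.6, 15.2, 15.7 and 7.6 in sham and 16.4, 11.8, 19.6 and 12.0 in TAC males, and 10.7, 13, 12.5 and 8.7 in sham and 10.8, 6.9, 14.7 and 9.1 in TAC females, all far below the limit for testing. The groups overlapped in both sexes, and a probe set this dim cannot be told from an unexpressed gene here.

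**Figure D3:**
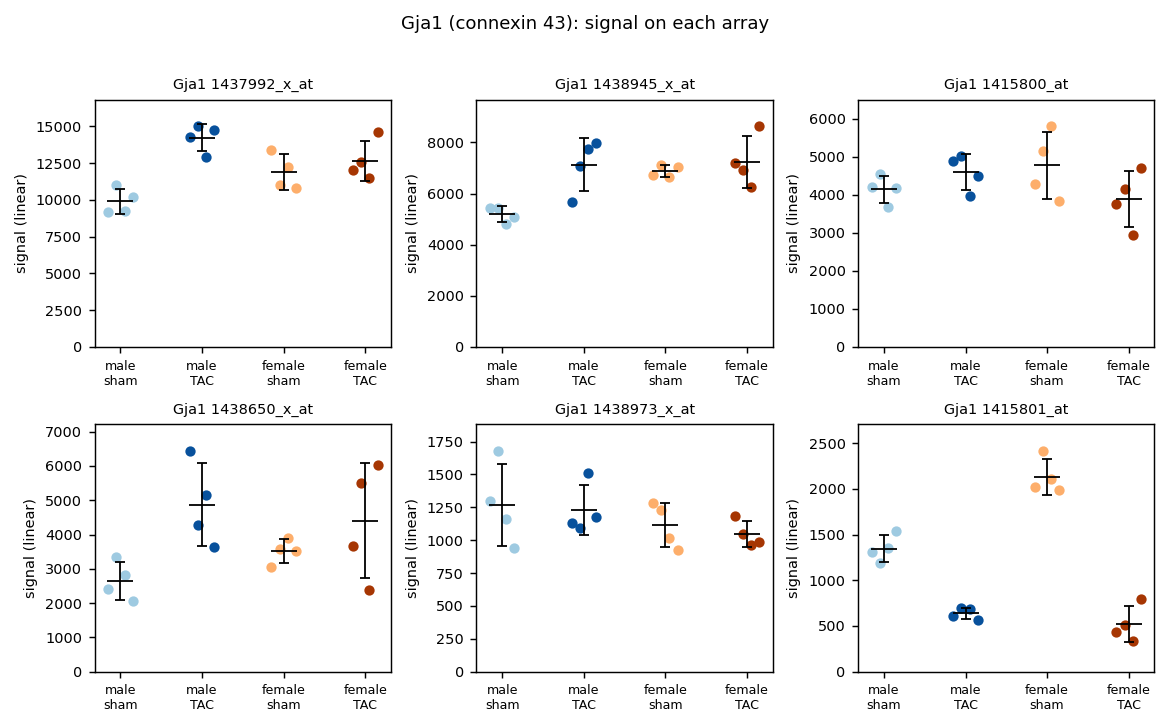
Signal (linear scale) of the 6 probe sets of Gja1 on each of the 16 arrays, by group; points are arrays, horizontal marks the group mean and bars 1 SD. In males 1437992_x_at, 1438945_x_at and 1438650_x_at were higher in TAC, while 1415801_at fell from 1184.5 or more in all shams to 800.0 or less in all TAC arrays.

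Because probe sets of 1 gene share the array, their disagreement was tested within arrays. For each gene with 2 or more probe sets tested, each probe set's log2 signal was set against that of the gene's probe set of highest mean on the same array. The TAC minus sham difference of that contrast was tested by permuting the operation within each sex (exact, 2-sided, 4900 arrangements, smallest possible p = 0.000408), with adjustment over all 4188 such pairs of 2834 genes. Dsp and Gja1 were named as discordant, from these arrays, in the rule that chose the members, so their differences are given as a description, with no test. Of the 10 pairs in the 5 other junction genes, 7 passed, all with a lower response than the brightest probe set; over all genes 24.9% of pairs passed, 18.4% in that direction. The lower response was also the more common direction over all genes, with 60.6% of pairs and a median difference of -0.13, against 9 of these 10 pairs and a median of -0.58. Whether the junction genes differ from the rest in this was not tested.

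The widest gap was in Dsp, where the response of 1427610_at was below that of 1435494_s_at by -2.44 (-2.78 in males, -2.09 in females), while that of 1435493_at was above it by 0.60. Gja1 1415801_at responded by -1.87 against 1437992_x_at (-1.58 in males and -2.16 in females), and the other Gja1 probe sets by -0.39 (1415800_at), -0.36 (1438973_x_at), -0.05 (1438945_x_at) and 0.24 (1438650_x_at). Among the tested pairs, Ctnnb1 1430533_a_at responded by -1.15 against 1420811_a_at (-1.17 in males and -1.14 in females; exact permutation p = 0.000408, adjusted p = 0.00559), so that both moved apart on the same arrays in both sexes. The same p held for Dsg2 1425619_s_at (-0.95), Ctnnb1 1450008_a_at (-0.77) and Cdh2 1449244_at (-0.48). Pkp2 1460511_at (-0.93) and Ctnna1 1448149_at (-0.60) had adjusted p = 0.0103 in this exact permutation test, and Pkp2 1429183_at (-0.55) 0.0081. The pairs that did not pass were Dsg2 1460380_at (-0.43, adjusted p = 0.209), 1449740_s_at (0.15, 0.213; 0.0383 without female sham 4) and 1449741_at (-0.14, 0.81), by exact permutation. Where on its transcript each probe set lies was not used here.

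**Figure D4:**
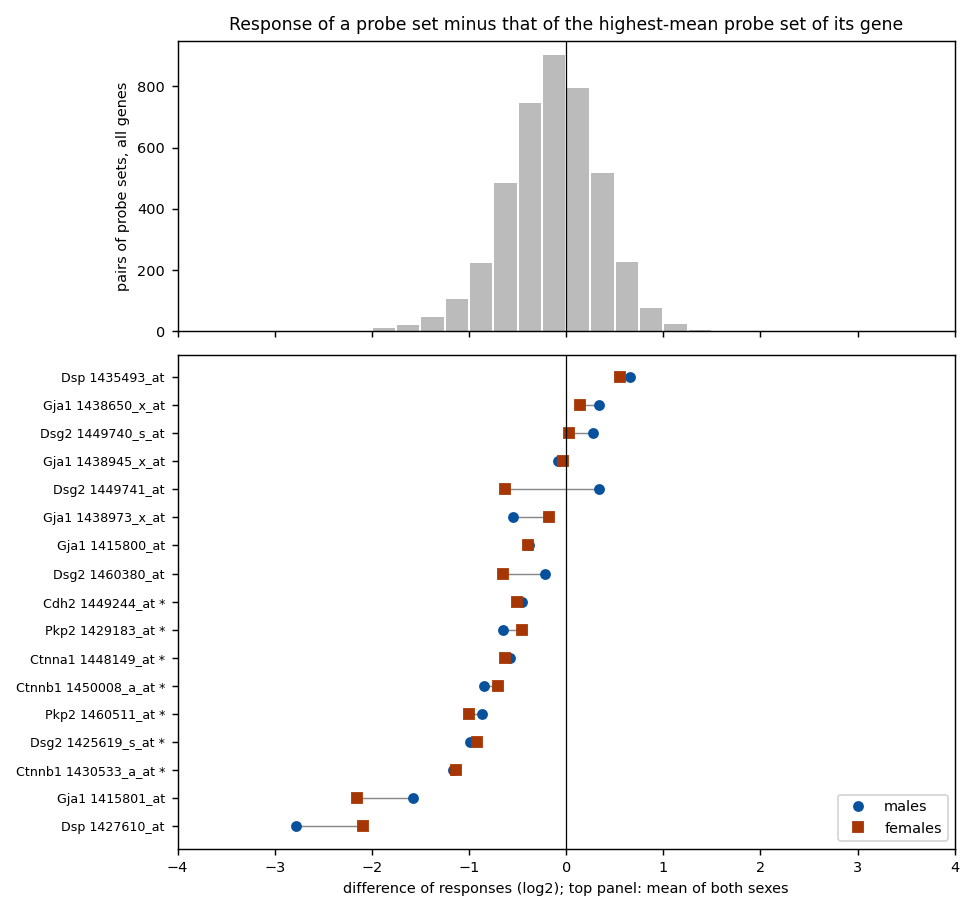
Top, number of pairs of probe sets of all genes by the response of a probe set minus that of its gene's brightest probe set (log2, mean of both sexes). Bottom, the same difference for the 17 junction pairs in males (circles) and females (squares), with an asterisk where the exact permutation test passed after adjustment over all pairs (Dsp and Gja1, chosen as discordant, carry no test); Dsp 1427610_at lies at -2.44 and Gja1 1415801_at at -1.87 averaged, while the median of all pairs is -0.13.

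Most of these calls no longer passed with the Gapdh ratio in the fit, and more of them passed with the 18S signal. With the Gapdh ratio as a covariate, 4 of the 15 male calls, 4 of the 12 female calls and 4 of the 19 averaged calls held, while over all probe sets the calls fell from 2422 to 398 in males, from 2045 to 498 in females and from 3890 to 640 averaged. The same 4 held each time, all of them falls: Dsp 1427610_at, Gja1 1415801_at, Dsg2 1425619_s_at and Ctnnb1 1430533_a_at. Averaged over the sexes, their values with that covariate were -3.22 (adjusted p = 0.00108), -1.79 (0.000747), -1.52 (0.00652) and -1.01 (0.00413). With the 18S signal in its place, 10 of the 15 male, 9 of the 12 female and 10 of the 19 averaged calls held, and Dsp 1427610_at came to -1.57 (adjusted p = 4.87e-05) against -2.72 without it. No rise of a junction probe set passed with the Gapdh ratio, but all 7 averaged rises stayed above 0 and 3 of them were larger than without it: Pkp2 1449799_s_at (0.53 against 0.41), Gja1 1438945_x_at (0.32 against 0.25) and Ctnnb1 1420811_a_at (0.29 against 0.21). The fall of Tjp1 came to -0.58 against -0.41 and that of Dsg2 1460380_at to -0.87 against -0.98, and neither passed. The standard errors were larger in this fit, with a median over the 26 averaged values of 0.18 against 0.10 without a covariate and 0.15 with the 18S signal, so a call lost here does not show that the difference went away. Among the values that moved most toward 0 were those of Pkp2 1460511_at (-0.19 against -0.52), Dsg2 1449740_s_at (-0.10 against -0.39) and Gja1 1438650_x_at (0.22 against 0.55). The ratio did not overlap between sham and TAC in either sex, so this fit cannot tell the operation and RNA quality apart. The log2 18S signal did not overlap in females (10.738 or more in shams, 10.731 or less in TAC), so the fit with it has the same limit there. In males its ranges overlapped (12.65 to 13.82 in shams, 9.06 to 13.16 in TAC).

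**Figure D5:**
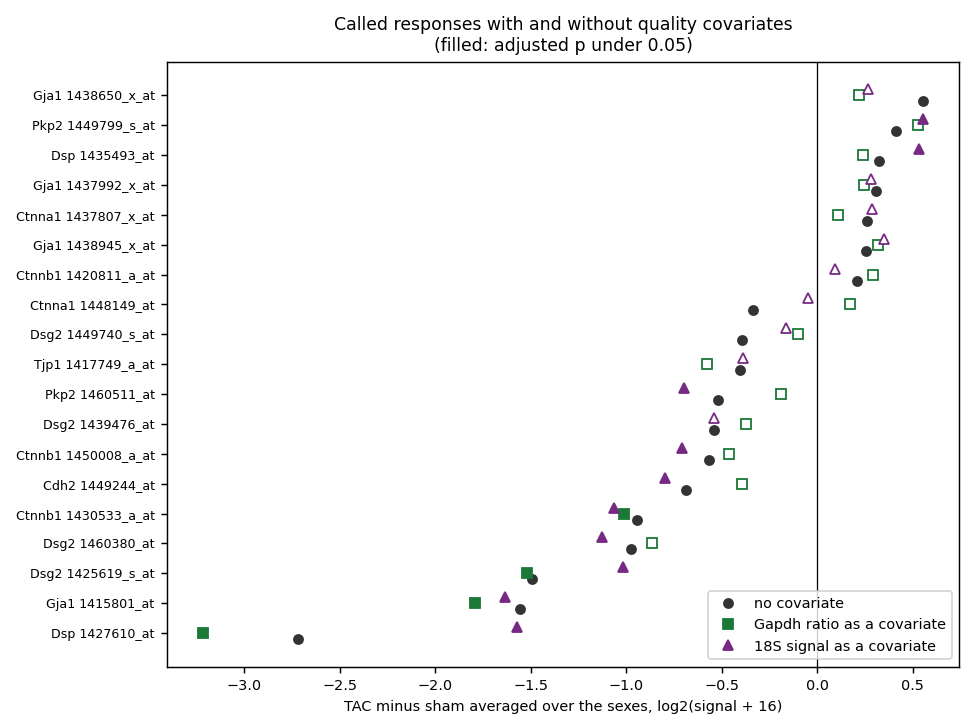
The 19 junction probe sets called averaged over the sexes, with their TAC minus sham difference in log2(signal + 16) in the plain fit (circles), with the Gapdh ratio (squares) and with the 18S signal (triangles) as a covariate; filled symbols passed adjusted p below 0.05. The 4 filled squares are the falls of Dsp 1427610_at, Gja1 1415801_at, Dsg2 1425619_s_at and Ctnnb1 1430533_a_at.

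The sexes were compared next, and no junction probe set passed on all 16 arrays. For the female response minus the male response, limma called 0 of the 13576 probe sets (0.0%; 897 at an unadjusted p below 0.05), and 4 of the 26 junction probe sets had an unadjusted p below 0.05, all of them Gja1. Gja1 1415801_at differed by -1.01 (SE 0.26, unadjusted p = 0.000829, adjusted p = 0.428), from -1.05 in males and -2.06 in females. The others were 1437992_x_at with -0.43 (SE 0.14, unadjusted p = 0.00578, adjusted p = 0.617), 1415800_at with -0.44 (SE 0.20, unadjusted p = 0.0381, adjusted p = 0.741) and 1438945_x_at with -0.38 (SE 0.16, unadjusted p = 0.0267, adjusted p = 0.727). All 4 had the lower response in females, and none passed the correction. Without female TAC 5, Gja1 1415801_at passed (-1.24, adjusted p = 0.0322); over all alternatives its adjusted p ranged from 0.0322 to 0.646. The other 22 had differences from -0.87 (Dsg2 1449741_at) to 0.83 (Dsp 1427610_at), the latter 0.83 (SE 0.49, unadjusted p = 0.107, adjusted p = 0.831).

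Among shams, 42 of all probe sets (0.309%; 0.0958% higher and 0.214% lower in females) and 0 of the 26 differed between the sexes. Gja1 1415801_at was higher in female shams by 0.66 (SE 0.18, unadjusted p = 0.00174, adjusted p = 0.155), Gja1 1438945_x_at by 0.41 (SE 0.11, unadjusted p = 0.00168, adjusted p = 0.155) and Ctnnb1 1420811_a_at by 0.39 (SE 0.10, unadjusted p = 0.000793, adjusted p = 0.114). An unadjusted p below 0.05 in this limma fit was reached by 1424 of all 13576 probe sets and by 6 of the 26. The other 3 of these 6 also had the higher mean in females. They were Gja1 1437992_x_at with 0.26 (SE 0.10, unadjusted p = 0.0158, adjusted p = 0.343), Dsg2 1439476_at with 0.44 (SE 0.16, unadjusted p = 0.0129, adjusted p = 0.322) and Ctnnb1 1450008_a_at with 0.28 (SE 0.11, unadjusted p = 0.0247, adjusted p = 0.401). After TAC, 9 probe sets (0.0663%, with 0.0589% higher and 0.00737% lower in females) and again 0 of the 26 differed. Here 874 of all 13576 probe sets and 3 of the 26 had an unadjusted p below 0.05. The 3 with an unadjusted p below 0.05 were Dsg2 1439476_at with 0.54 (SE 0.16, unadjusted p = 0.00296, adjusted p = 0.508), Ctnnb1 1420811_a_at with 0.22 (SE 0.10, unadjusted p = 0.0398, adjusted p = 0.762) and Ctnnb1 1450008_a_at with 0.25 (SE 0.11, unadjusted p = 0.0379, adjusted p = 0.757). Gja1 1415801_at had -0.35 (SE 0.18, unadjusted p = 0.0657, adjusted p = 0.789). Fitted on the sham arrays alone, Gja1 1415801_at and 1438945_x_at passed the threshold in the sham comparison (adjusted p = 0.0162 and 0.0456), as did 1415801_at without female TAC 5 (0.0387).

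Other genes of the disc gave a frame for the members. Of 26 listed, 17 were measured, and on each gene's brightest probe set 2 rose and 3 fell in males and 3 rose and 1 fell in females (median log2 change 0.11 and 0.03). Averaged over the sexes, 4 rose and 4 fell. Counted in the same way, 8.1% of all 8272 genes rose and 7.77% fell in males. The shares were 6.37% and 6.69% in females and 13.4% and 13.1% averaged. Desmocollin 2 (Dsc2), the desmosomal partner of Dsg2, fell, with changes of -0.60 (SE 0.20, adjusted p = 0.041) in males and -0.75 (SE 0.20, adjusted p = 0.0128) in females. Des, which encodes the desmin that desmoplakin anchors, rose by 0.43 (SE 0.13, adjusted p = 0.0301) in males and 0.61 (SE 0.13, adjusted p = 0.0034) in females. In males the actin crosslinker Flnc rose (0.77, adjusted p = 0.0301), and the junctional receptor Cxadr (-1.19, 0.0242) and Popdc2 (-0.38, 0.0286) fell. In females Xirp1, an actin-binding protein of the disc (0.70, 0.00696), and Vcl, vinculin (0.40, 0.0219), rose. Fermt2, which activates integrins, fell on a dimmer probe set only (-0.74, adjusted p = 8.47e-05, in males and -0.86, 3.08e-05, in females), with 0.23 and -0.0037 on its brightest.

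Markers of some cell types moved as well, and their part in the junction genes' values was not tested. They were counted on each gene's brightest probe set, on which 8.1% of all genes tested rose and 7.77% fell in males. In females 6.37% rose and 6.69% fell. Of 12 cardiomyocyte markers, all measured, 1 rose and 5 fell in males and 1 rose and 7 fell in females; their summed signal was 403418 to 481134 in male shams, 345551 to 412551 in male TAC, 406324 to 439660 in female shams and 306171 to 382604 in female TAC. Of 10 fibroblast markers, 6 rose and 1 fell in males and 4 rose and 0 fell in females, with sums of 20638.5 to 25501.9 in male shams, 39126.9 to 59393.5 in male TAC, 24954.1 to 29972.1 in female shams and 36343.6 to 50330.3 in female TAC. Fibroblasts also express Gja1 and Cdh2. Of 12 endothelial markers 1 rose and 0 fell in each sex, with sums that overlapped (24142.1 to 28488.1 in male shams and 20199.9 to 26101.8 in male TAC, 25716.1 to 28469.6 in female shams and 23539.1 to 27846.7 in female TAC). Of 8 macrophage markers 3 rose in males and 1 in females; sums were 7642.9 to 10230.9 and 10209.2 to 11251.5 in male shams and TAC, and 7453.5 to 8036.8 and 9009.0 to 12719.7 in females. Of 4 measured smooth muscle markers 1 rose in males and 1 fell in females. From here on, sums also hold the listed markers that were on the array but too dim to be tested. Over the 6 smooth muscle markers on the array they were 3330.2 to 5000.1 and 4383.1 to 5569.1 in male shams and TAC. In females they were 5343.1 to 7255.7 and 4099.6 to 6544.6. Of 6 measured atrial and conduction markers 1 rose in each sex, and of 2 measured epicardial markers none passed. Sums over the 9 atrial and conduction markers on the array were 1311.9 to 1932.7 and 2183.2 to 3253.5 in male shams and TAC. In females they were 969.4 to 2166.2 and 1788.6 to 3680.9. Those over the 6 epicardial markers on the array were 490.6 to 1012.2 and 481.6 to 1322.6 in males. In females they were 534.1 to 962.2 and 579.0 to 1318.1.

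The genes whose signals followed the junction probe sets most closely differed between probe sets of 1 gene. Over the 16 arrays, which share the 4 groups, Dsp 1427610_at had its highest Pearson correlations with Rgs2 (0.976), Dsg2 1425619_s_at (0.972), Kpna3 (0.96), Gata6 (0.954) and Lpl (0.952). The brightest Dsp probe set was closest to Itprid2 (0.842), Cox5b (0.827), Nedd4l (0.826), Ms4a4c (0.822) and Zwint (0.821). Gja1 1415801_at was closest to Ppat (0.952), Trpm7 (0.939), Reep5 (0.939), Ghr (0.937) and Sh3kbp1 (0.934), and the brightest Gja1 probe set to Wdr6 (0.902), Naalad2 (0.901), Rflnb (0.899), Ndufv2 (0.898) and Csrp2 (0.871). No gene stood in both lists of Dsp or in both lists of Gja1, but each list held only 5 genes. Dsp 1427610_at and Gja1 1415801_at were also taken because they had the smallest limma p of their gene averaged over the sexes. The correlations describe these arrays and carry no test.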

How the data were processed

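The authors' deposited table holds 1 signal intensity per probe set and array, computed with GCOS per the submitters' processing notes; its version, settings, background and detection calls were not used here. The deposited intensity values were linear and already scaled (mean after trimming 2% at each end 500.21 to 500.25 on all 16 arrays; array medians 189.7 to 222.3); precision is limited by there being 4 arrays a group.

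Signals were taken as log2(signal + 16). The 64 AFFX controls and the dimmest 40% of the rest were left out. limma 3.58.1 in R 4.3.3 fitted 4 group means over the 16 arrays (empirical Bayes with an intensity trend, 2-sided, Benjamini-Hochberg adjustment over 13576 probe sets of 8272 genes, threshold 0.05); all p values of single genes come from it unless a permutation test is named. Within-gene contrasts were adjusted over all genes' pairs, where the design named only the members' pairs. Both tests were run on simulated data first.

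The platform annotation gave the gene names (20380 with 1 symbol, 691 with several, 1555 with none). All 10 members and 6 promoters of members were found in RefSeq's tables. The members, lists, tests and alternatives were chosen with earlier results of these data known. The rule names every member probe set in each comparison, with array values for the highest-mean probe set of each gene and every one called, called genes of the disc list, and the 5 genes closest to Gja1 and Dsp. Alternatives were median centring, quantile normalization, no filter, the dimmest 60% left out, pseudocounts of 1 and 64, no trend, array weights, the compared groups alone, a replicate block, the Gapdh ratio or 18S signal as a covariate, and each array left out. Replicate numbers were not used as pairs in the main fit. Of 19 same-number pairs, 1 correlated above 0.1 in its deviations from the group means (-0.0345 to 0.115). Pairs of unlike numbers were not looked at, so these values do not show that no pairing exists. The sample titles also carry a running number, which is lower on every TAC array than on every sham array. Its meaning is not given, and an order that it might stand for cannot be told apart from the operation.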

Additional observations from a re-analysis of the deposited data

Results flagged for a closer look

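In 7 of the 104 groups of 4 arrays looked at (26 probe sets in 4 groups), 1 array stood apart from the other 3, with a gap to its nearest neighbour that took up more of the group's range than Dixon's 95% limit allows. Chance alone marks about 1 group in 20. Of the 7, 2 were on Tjp1: female sham 2 read 2492.1 against 1928.3 to 1946.1 on the others of its group, and female TAC 3 read 1299.5 against 1659.9 to 1682.1. Female sham 2 was also the high array for Jup (1087.8 against 768.4 to 800.7). Among the sham arrays, Dsp 1435493_at read 6899.6 on male sham 1 (6101.8 to 6200.4 on the others), Dsg2 1425619_s_at read 701.1 on male sham 3 (520.8 to 543.2) and Pkp2 1460511_at read 636.5 on female sham 1 (381.4 to 408.7). Dsg2 1460380_at read 90.5 on female TAC 5, against 209.1 to 243.5.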

How the results depend on the processing

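Of 12 further settings in males and in females, the falls of Dsp 1427610_at, Gja1 1415801_at, Dsg2 1425619_s_at and Ctnnb1 1430533_a_at passed under all that were run. Counts over all probe sets moved by over 1.5 times as follows. With the Gapdh ratio as a covariate they were 398 in males, 498 in females, 640 averaged and 4 for the sexes after TAC; with the 18S signal 1000 in males, 1917 averaged and 26 for the sham sexes. The replicate block gave 2 for the difference of responses and 65 for the sham sexes. Under that block 11 of 15 male, 10 of 12 female and 17 of 19 averaged junction calls passed; those that did not were Dsp 1435493_at in both sexes, Ctnnb1 1420811_a_at, Pkp2 1449799_s_at and Dsg2 1460380_at in males, Dsg2 1439476_at in females, and Gja1 1438650_x_at and 1438945_x_at averaged. The difference gave 1 with a pseudocount of 64 and 2 with the dimmest 60% left out, which also gave 5 for the sexes after TAC. Without an intensity trend the sham sexes gave 21, and on the compared groups alone 88, with 3 after TAC. With 1 array left out the counts were 1822 to 2494 in males, 1607 to 2126 in females and 3533 to 3840 averaged. They were 0 to 11 for the difference, 18 to 69 among shams and 6 to 12 after TAC. For probe sets that disagreed, the 7 junction pairs outside Dsp and Gja1 that had passed still passed without any 1 array.

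Of the values that changed sign, only the averaged one of Ctnna1 1448149_at (-0.34) had passed; the cause was not tested. With the Gapdh ratio, Ctnna1 1448149_at turned to 0.27 in males, 0.067 in females and 0.17 averaged, Gja1 1415800_at to -0.31 in males, Cdh2 1418815_at to 0.0082 in males, Gja1 1438973_x_at to 0.31, 0.15 and 0.23, Dsg2 1449740_s_at to 0.028 in males, Jup to -0.13 in females and Gja1 1438650_x_at to -0.030 in females. With the 18S signal, Ctnna1 1448149_at turned to 0.037 in males and Jup to -0.26 in females. Median centring turned Gja1 1438973_x_at to 0.029 in males, 0.033 in females and 0.031 averaged, and Pkp2 1429183_at to 0.026 in females, Gja1 1415800_at to 0.0085 and Jup to 0.034 averaged. The replicate block turned Dsg2 1449741_at to 0.022 in males and Jup to 0.083 averaged. With 1 array left out, values ranged for Jup from -0.46 to 0.00084 in males and -0.14 to 0.091 averaged, for Gja1 1438973_x_at from -0.16 to 0.12 in males and -0.12 to 0.017 averaged, for Dsg2 1449741_at from -0.81 to 0.033 in males, for Pkp2 1429183_at from -0.20 to 0.026 in females and for Gja1 1438945_x_at from -0.022 to 0.13 in females. Detection calls were not used, so dim signals have no measured background.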
